A study of Mus musculus with 10 samples.

Results

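The genes described here encode the subunits, regulators and assembly factors of the proteasome, measured by RNA sequencing in failing mouse hearts with and without cardiomyocyte RAD. They were taken by symbol as every protein-coding gene named Psma, Psmb, Psmc, Psmd, Psme, Psmf or Psmg followed by a digit, which gave 51 of the 57185 genes that had counts. By structure they fell into 6 ATPases and 11 other subunits of the 19S particle, 7 alpha and 4 structural beta subunits of the 20S core, 3 constitutive and 3 immunoproteasome catalytic subunits, 5 activators, 1 inhibitor, 7 assembly chaperones, 2 proteins that bind a subunit (Psmc3ip and Psme3ip1), and the testis subunit Psma8 and the thymus subunit Psmb11. Of these, 50 passed a filter of more than 10 counts in at least 6 of the 10 mice. Psmb11, a catalytic subunit of thymic epithelium, did not pass: it had 2 counts in 1 MLPKO mouse and 0 in each of the others.

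The proteasome degrades proteins that carry a ubiquitin chain. The 20S core is a barrel of alpha and beta rings whose Psmb5, Psmb6 and Psmb7 subunits cut peptide bonds, and the 19S particle on its ends binds the chain, removes it, and uses a ring of ATPases to unfold the substrate and feed it into the core. Interferon induces Psmb8, Psmb9 and Psmb10, which replace the constitutive catalytic subunits in the immunoproteasome. In heart muscle the system turns over sarcomere proteins, and its transcripts are known to be controlled together.

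Left ventricles of 5 MLPKO and 5 MLPKO-cRADKO mice, all male and 16 weeks old, were compared. Mice of both groups lacked muscle LIM protein (Csrp3), a loss that causes dilated cardiomyopathy, carried floxed alleles of Rrad, the gene of the calcium channel inhibitor RAD, and had 1 tamoxifen injection of 100 mg per kg at 10 weeks, with the hearts labelled as 1 month after it. The labelled ages and this interval do not add up exactly, so the time since tamoxifen is known only roughly. The MLPKO-cRADKO mice also carried the MYH6_MerCreMer transgene, which is expressed in cardiomyocytes, so that by design the deletion is restricted to these cells. No group had the Cre transgene with intact Rrad, so the effects of Cre and of the deletion cannot be told apart. Each library came from 1 mouse and from the apical part of the ventricles, with all its cell types. In such bulk tissue, fewer cells of a type and less RNA per cell cannot be told apart.

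Total counts ranged from 33457406 to 49965101 over the 10 mice, with a median of 43738141. Rrad had 140 to 282 CPM in MLPKO (counts scaled to a common library size by the TMM method, which equalizes the bulk of genes between libraries) and 135 to 202 in MLPKO-cRADKO, with a log2 fold change of −0.38 and an edgeR adjusted p of 0.29. Csrp3 had 1009 to 3261 CPM in MLPKO and 691 to 1177 in MLPKO-cRADKO. Its log2 fold change was −1.08, with an adjusted p of 0.0666 by edgeR and 0.0362 by DESeq2. Both counts cover the whole gene and were not split by exon, so they do not check the deleted parts. Mitochondrially encoded genes took 15.8% to 21.2% of the counts in MLPKO and 21.4% to 22.6% in MLPKO-cRADKO. The replicate 2 mouse of MLPKO lay apart from the other mice on the first principal component of all genes, at −55.7 against −22.5 to 24.0.

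The level of each gene per length was set by FPKM, its CPM divided by the length of its joined exons in kilobases, as a mean over the 10 mice. The highest values were found for Psmc3 (48.8), a 19S ATPase, Psmd2 (47.0), the large base subunit that docks ubiquitin shuttles, and Psmb6 (38.9), the caspase-like catalytic subunit. The lowest were found for Psmg3 (0.733), an assembly chaperone, Psmc3ip (0.651), a meiotic recombination factor, and Psma8 (0.0692), the alpha subunit of spermatocytes. The median was 17.6 over the 17 genes of the 19S and 17.7 over the 14 constitutive genes of the 20S, and it was 1.86 over the 7 chaperones. With the length of the longest coding transcript in place of all joined exons, the medians were 30.6, 25.2 and 5.60, Psmc3 (82.5) and Psmd2 (78.3) again came first and second, and Psma7 (69.5) took the next place. The subunits of the particle were thus not at 1 level per length: within the 19S the highest gene, Psmc3, was 10.2 times the lowest, Psmd14 (4.76), the deubiquitinase that removes the ubiquitin chain.

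**Figure D1:**
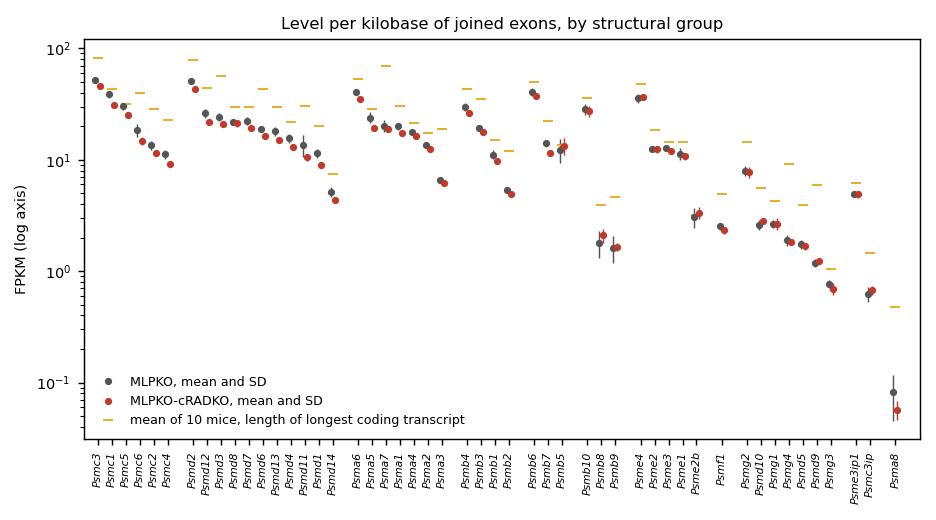
FPKM (CPM per kilobase of joined exons, log axis) of the 50 tested proteasome genes, ordered by structural group and level; grey and red points are the means of MLPKO and MLPKO-cRADKO mice with SD (n = 5 each), and the yellow marks are the mean of all 10 mice computed with the longest coding transcript. Genes of the 19S and 20S lie between 4.76 and 48.8, and Psmb8 (1.95) and Psmb9 (1.64) lie below them while Psmb10 (27.8) lies among them.

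In the comparison of the genotypes, transcripts of the 19S particle were lower in MLPKO-cRADKO. The summed CPM of its 17 genes was 1781, 1977, 1721, 1611 and 1895 in the MLPKO mice 1 to 5, and 1528, 1527, 1455, 1537 and 1491 in the MLPKO-cRADKO mice 1 to 5. Every MLPKO-cRADKO mouse was below every MLPKO mouse, and the means were 1797 ± 144 and 1508 ± 34.1 (SD, n = 5 each), or 83.9% of MLPKO. With plain total counts in place of TMM the second mean was 87.4% of the first, and the genotypes again did not overlap. For the 14 constitutive genes of the 20S core the sums ranged from 969 to 1140 in MLPKO and from 924 to 985 in MLPKO-cRADKO. These ranges overlapped, in MLPKO replicate 4 against MLPKO-cRADKO replicate 1, and the means were 1056 ± 73.7 and 947 ± 24.8 (89.7%). The sums of the 5 activators (472 ± 35.2 and 471 ± 5.71) and of the 7 chaperones (83.8 ± 2.94 and 83.3 ± 3.86) differed by less than their spread. Whether the 19S differed from the other groups in its change was not tested.

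**Figure D2:**
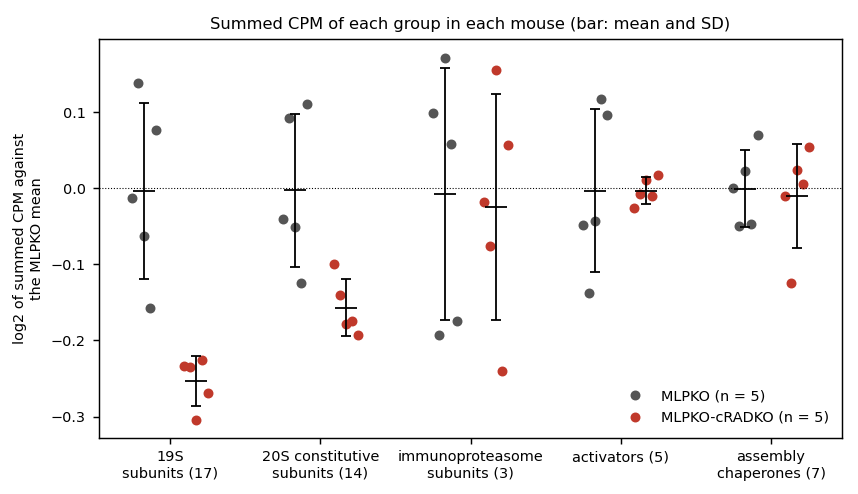
Log2 of the summed CPM of each structural group in each mouse, relative to the mean of the MLPKO mice (dotted line); grey points are MLPKO, red points MLPKO-cRADKO, and the bars give mean and SD (n = 5 each). The 19S sums of the MLPKO-cRADKO mice (1455 to 1537 CPM) lie below all MLPKO sums (1611 to 1977 CPM), and the genotypes overlap in the other groups.

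The count model was fitted to all 13454 genes that passed the filter, with edgeR's quasi-likelihood test, and a gene was taken as changed at a Benjamini-Hochberg adjusted p under 0.05 over all of them. Of the 50 proteasome genes, 5 fell and 0 rose; of all genes, 1.8% fell and 0.944% rose. At an unadjusted p under 0.05, 23 proteasome genes were lower and 0 higher, against 11.5% of all genes lower and 10.1% higher. By DESeq2, which was run beside edgeR, 18 were lower and 0 higher, against 6.08% of all genes lower and 3.96% higher, and the CPM of 14 were lower without overlap between the genotypes, against 3.98%. The log2 fold change was negative for 41 of the 50, with a median of −0.12, while it was negative for 47.9% of all genes, with a median of 0.01. The changes were small: the 95% intervals of 47 genes lay within a fall or a rise of 1.5 times.

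All 5 changed genes encode subunits of the 26S proteasome, 4 in the base of the 19S particle and 1 in the catalytic ring. Psmc1 (chromosome 12, 100076404 to 100090692, GRCm39), an ATPase of the ring that opens the gate of the core, had 123, 137, 118, 116 and 137 CPM in MLPKO and 102, 102, 100.0, 103 and 97.3 CPM in MLPKO-cRADKO. The genotypes did not overlap, and the log2 fold change was −0.32 ± 0.06 (SE), with an edgeR adjusted p of 0.0233.

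Psmc4 (chromosome 7, 27738180 to 27749526), another ATPase of the same ring, had 61.0, 67.0, 54.9, 55.5 and 65.2 CPM in MLPKO and 50.5, 51.8, 46.2, 50.0 and 49.9 CPM in MLPKO-cRADKO. All 5 MLPKO-cRADKO mice were below all MLPKO mice, with a log2 fold change of −0.29 ± 0.07 (SE) and an edgeR adjusted p of 0.0461. The other ATPases, Psmc2, Psmc3, Psmc5 and Psmc6, had log2 fold changes from −0.18 to −0.32 and edgeR adjusted p from 0.0551 to 0.0899. DESeq2 called all 6 ATPases lower, against 6.08% of all genes.

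Psmd1 (chromosome 1, 85992097 to 86070048), a large scaffold subunit of the base, had 117, 132, 114, 112 and 134 CPM in MLPKO and 98.5, 99.7, 87.4, 101 and 95.2 CPM in MLPKO-cRADKO. The genotypes did not overlap, and its fall was the deepest of the 5, with a log2 fold change of −0.34 ± 0.07 (SE, edgeR adjusted p = 0.0295). Psmd2 (chromosome 16, 20470346 to 20485708), which docks the shuttle proteins that bring substrates, had 257, 282, 255, 239 and 262 CPM in MLPKO and 213, 210, 219, 220.0 and 219 CPM in MLPKO-cRADKO. These too were separate, with a log2 fold change of −0.26 ± 0.05 (SE, edgeR adjusted p = 0.0320).

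**Figure D3:**
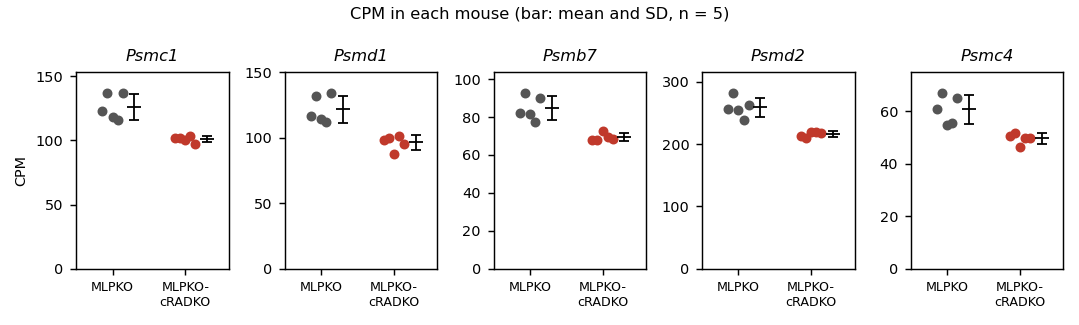
CPM of the 5 genes with an edgeR adjusted p under 0.05 in each mouse (grey MLPKO, red MLPKO-cRADKO), with mean and SD (n = 5 each) and axes that start at 0. In each panel all MLPKO-cRADKO mice lie below all MLPKO mice, for Psmc1 at 97.3 to 103 CPM against 116 to 137 CPM.

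The other subunits of the 19S had negative estimates that did not pass the edgeR threshold. Psmd11, a lid subunit, had the lowest log2 fold change of the particle (−0.37 ± 0.13, SE), with an edgeR adjusted p of 0.125; its value in MLPKO replicate 2 was 135 CPM, against 75.3 to 103 CPM in the other MLPKO mice and 70.9 to 86.1 CPM in MLPKO-cRADKO. Psmd12, Psmd4 and Psmd13, which are a lid subunit, a ubiquitin receptor and a lid subunit, lay between −0.26 and −0.27 with edgeR adjusted p from 0.0557 to 0.0608, and all 3 were called by DESeq2. Psmd8 had 66.2 ± 3.9 CPM in MLPKO and 65.0 ± 4.95 CPM in MLPKO-cRADKO (log2 fold change −0.03, edgeR adjusted p = 0.862). Over the 17 genes the log2 fold change was negative in 17, with a median of −0.26 against 0.01 over all genes. Of them, 4 were lower by edgeR (1.8% of all genes), 14 by DESeq2 (6.08%), and 10 were lower without overlap between the genotypes (3.98%). The sign of all 17 was the same with RLE and upper quartile scaling.

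Among the 14 constitutive genes of the core, 13 had a negative log2 fold change, with a median of −0.12. Only Psmb7 was lower by edgeR (1.8% of all genes), while DESeq2 also called Psma1, Psma5 and Psma6 (6.08% of all genes were lower). Psma5, an alpha ring subunit, was close to the threshold (−0.30 ± 0.07, SE, edgeR adjusted p = 0.0557), and it had 37.1 ± 1.34 CPM in MLPKO-cRADKO against 45.7 ± 5.18 CPM in MLPKO without overlap. The other alpha subunits lay from −0.09 (Psma7) to −0.20 (Psma6), and the structural beta subunits Psmb1 to Psmb4 from −0.11 to −0.20.

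Psmb7 (chromosome 2, 38478044 to 38534099), the trypsin-like catalytic subunit, had 81.9, 92.7, 81.5, 77.5 and 90.2 CPM in MLPKO and 67.8, 67.8, 72.8, 69.3 and 68.5 CPM in MLPKO-cRADKO. The genotypes did not overlap, and the log2 fold change was −0.29 ± 0.06 (SE, edgeR adjusted p = 0.0302). Psmb6 (chromosome 11, 70416183 to 70418684), the caspase-like subunit, had 82.1 to 97.5 CPM in MLPKO and 76.8 to 85.1 CPM in MLPKO-cRADKO, which overlapped (−0.13 ± 0.06, SE, edgeR adjusted p = 0.253). Psmb5 (chromosome 14, 54850776 to 54855481), the chymotrypsin-like subunit, was the only constitutive subunit with a positive sign, at 15.4 to 30.1 CPM in MLPKO and 19.6 to 28.9 CPM in MLPKO-cRADKO (0.11 ± 0.16, SE, edgeR adjusted p = 0.742). Its 95% interval ran from −0.24 to 0.47, which holds the estimate of Psmb6 and not that of Psmb7. The interval of Psmb7 ran from −0.42 to −0.16 and overlapped that of Psmb5, and no difference between the genes was tested. Reads of Psmb7 lie over exons of which 46.8% are shared with Nek6 on the opposite strand, and since the strand setting of the counting is not given, reads of the 2 genes cannot be told apart there.

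**Figure D4:**
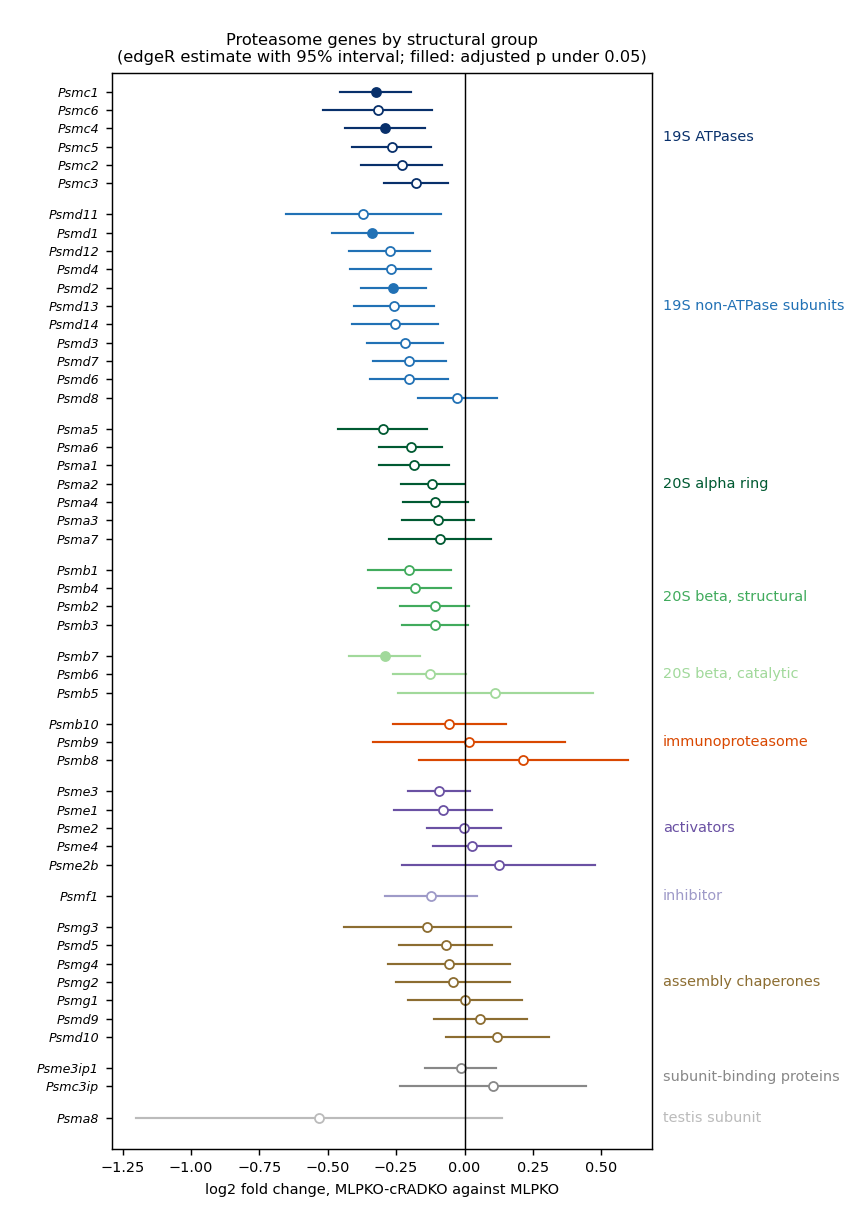
Log2 fold change of MLPKO-cRADKO against MLPKO for the 50 tested proteasome genes, by structural group, with 95% intervals from edgeR (n = 5 mice per genotype); filled points have an adjusted p under 0.05. All 17 genes of the 19S lie left of 0 with a median of −0.26, and the immunoproteasome genes, activators and chaperones lie on both sides of it.

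The immunoproteasome subunits did not pass the test in either direction. Psmb8 (chromosome 17, 34416690 to 34420428) had 9.01, 5.10, 6.45, 5.17 and 5.01 CPM in MLPKO and 8.14, 7.71, 7.38, 5.50 and 7.06 CPM in MLPKO-cRADKO, with a log2 fold change of 0.21 ± 0.17 (SE, edgeR adjusted p = 0.516), the highest of all proteasome genes. Psmb9 (chromosome 17, 34400960 to 34406738) had 8.76, 5.01, 6.95, 5.09 and 5.07 CPM and then 6.31, 6.84, 6.58, 5.70 and 5.88 CPM (0.02 ± 0.16, SE, edgeR adjusted p = 0.965). The same mouse, MLPKO replicate 1, was the highest of its genotype for both genes, and the genotypes overlapped.

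Psmb10 (chromosome 8, 106662362 to 106665077) was more abundant, at 43.6 to 55.8 CPM in MLPKO and 40.8 to 54.4 CPM in MLPKO-cRADKO (−0.06 ± 0.10, SE, edgeR adjusted p = 0.786). At an unadjusted p under 0.05, 0 of the 3 immunoproteasome genes were called, against 11.5% of all genes lower and 10.1% higher. By DESeq2 0 were called, against 6.08% lower and 3.96% higher, and few calls are due among 3 genes. The 95% intervals were −0.17 to 0.60 for Psmb8, −0.33 to 0.37 for Psmb9 and −0.26 to 0.15 for Psmb10, so the estimate of Psmb7 was within the interval of Psmb9 alone. The interval of Psmb7 itself (−0.42 to −0.16) overlapped those of all 3 genes, and differences between genes were not tested.

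Each immunoproteasome subunit was set against the subunit whose place it takes, as the ratio of FPKM in the same mouse. By joined exons, Psmb9 was 4.07% ± 1.34 of Psmb6 in MLPKO and 4.44% ± 0.370 in MLPKO-cRADKO, and Psmb8 was 15.5% ± 5.68 and 16.0% ± 2.65 of Psmb5 (SD, n = 5 each). By the longest coding transcript these values were higher, at 8.85% ± 2.93 and 9.67% ± 0.805 for Psmb9 and 29.5% ± 10.8 and 30.5% ± 5.05 for Psmb8. Per length, Psmb10 stood above Psmb7, at 203% ± 36.2 and 237% ± 23.4 by joined exons and at 152% ± 27.0 and 177% ± 17.5 by the longest coding transcript. In CPM it was below Psmb7, at 49.1 against 84.8 in MLPKO and 47.2 against 69.2 in MLPKO-cRADKO. The joined exons of Psmb10 span 1732 bases and those of Psmb7 6025, part of them shared with Nek6, so this ratio depends on the annotated lengths. All 3 ratios overlapped between the genotypes.

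**Figure D5:**
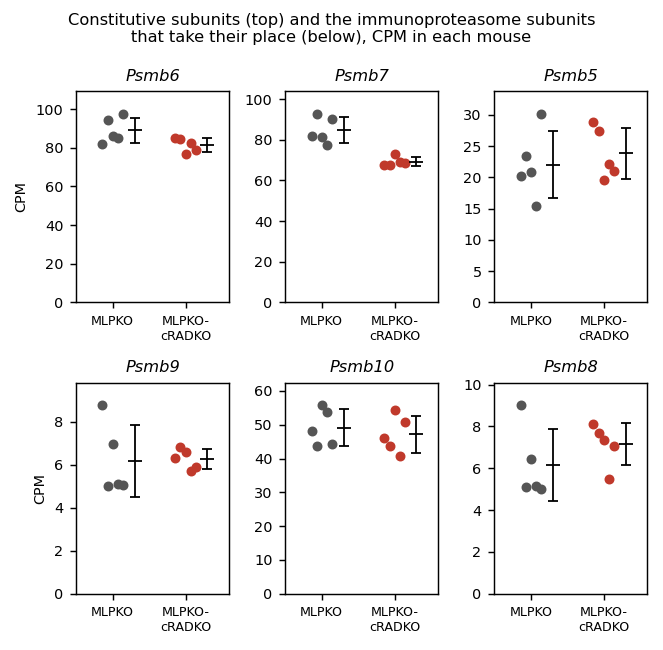
CPM in each mouse of the constitutive catalytic subunits Psmb6, Psmb7 and Psmb5 (top) and of Psmb9, Psmb10 and Psmb8, which replace them in that order (bottom); grey is MLPKO and red MLPKO-cRADKO, bars are mean and SD (n = 5 each), and axes start at 0. The genotypes are separate for Psmb7 (77.5 to 92.7 CPM against 67.8 to 72.8 CPM) and overlap in the other panels.

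The activators that can cap the core in place of the 19S did not pass the test. Psme4, the nuclear activator PA200, was the most abundant of them per length and had 313 ± 27.1 CPM in MLPKO and 319 ± 8.90 CPM in MLPKO-cRADKO (log2 fold change 0.03, edgeR adjusted p = 0.846). The interferon-inducible PA28 genes Psme1 (−0.08) and Psme2 (−0.00) and the nuclear Psme3 (−0.09) had edgeR adjusted p of 0.631, 0.984 and 0.329. Psme2b (0.13) shares 99.4% of 795 aligned transcript bases with Psme2, so the split of reads between these 2 genes is uncertain. Psmf1, the inhibitor PI31, had 19.6 ± 1.59 and 18.1 ± 1.43 CPM (−0.12, edgeR adjusted p = 0.389). Among activators and inhibitor, 0 genes had an unadjusted p under 0.05, against 11.5% of all genes lower and 10.1% higher. By DESeq2 0 were called, against 6.08% lower and 3.96% higher, and few calls are due in so small a group.

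The assembly chaperones, which join the rings and the ATPases and leave the finished particle, had log2 fold changes from −0.14 (Psmg3) to 0.12 (Psmd10), with a median of −0.04, and 0 of 7 were called by edgeR, by DESeq2 or at an unadjusted p under 0.05. Over all genes the shares lower and higher were 1.8% and 0.944% by edgeR, 6.08% and 3.96% by DESeq2, and 11.5% and 10.1% unadjusted. At such shares few calls are due among 7 genes. Of the 19 tested genes outside the constitutive 26S particle, 11 had a negative and 8 a positive sign. The lowest log2 fold change of all proteasome genes was that of Psma8 (−0.53 ± 0.31, SE, edgeR adjusted p = 0.341), at 0.507 to 1.76 CPM in MLPKO and 0.610 to 0.929 CPM in MLPKO-cRADKO. The highest were those of Psmb8, Psme2b and Psmd10, and none of these passed the test.

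The spread between mice is given as the coefficient of variation. Its median over the 31 constitutive genes of the 26S was 8.03% in MLPKO and 3.92% in MLPKO-cRADKO, against 12.9% and 10.4% over all genes. This is a description, with no test. In MLPKO, replicate 2 had the highest 19S sum (1977 CPM) with the lowest mitochondrially encoded share of counts (15.8%), and replicate 4 had the lowest sum (1611 CPM) with the highest share (21.2%), and the 3 mice between them kept the same inverse order. In MLPKO-cRADKO this order did not hold: replicate 4 had both the highest sum (1537 CPM) and the highest share (22.6%), and replicates 3 and 5 had the lowest sums (1455 and 1491 CPM) and the lowest shares (21.5% and 21.4%). The MLPKO mice kept the order of their 19S sums on the first principal component, from replicate 2 (−55.7) to replicate 4 (11.2). Csrp3 (3261 to 1009 CPM) and Nppa (2435 to 106 CPM), which the paper counts among foetal cardiac genes, kept it too. In MLPKO-cRADKO the component did not keep it exactly, with replicate 1 at its low end (3.0). These orders were not tested. With the mitochondrially encoded genes left out of the fit and of the library sizes, the same 5 proteasome genes were called and the median of the 19S was again −0.26. TMM already equalizes the bulk of genes, so this fit could change little, and it did not hold the share fixed. The share was 15.8% to 21.2% in MLPKO and 21.4% to 22.6% in MLPKO-cRADKO. These ranges did not overlap, so share and genotype cannot be told apart.

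The calls depended on single mice. Without MLPKO replicate 4, 18 proteasome genes fell, and without MLPKO replicates 2 and 3 in turn, 4 each. Without MLPKO replicate 1 the count was 1, without MLPKO replicate 5 it was 0, and without MLPKO-cRADKO replicates 1 to 5 it was 2, 1, 0, 0 and 0. In all 10 of these fits, 22 to 25 proteasome genes were lower at an unadjusted p under 0.05, and the log2 fold change was negative in 16 or 17 of the 19S genes, the exception being Psmd8. The number of all genes that fell moved in the same way, from 35 without replicate 5 of either genotype to 531 without MLPKO replicate 4.

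Proteins that work with the particle but carry other symbols were read from the same fit. Of 8 such proteins, 0 were called by edgeR (1.8% of all genes fell and 0.944% rose), and the median log2 fold change was −0.12. By DESeq2 2 were lower (6.08% of all genes), as were 2 at an unadjusted p under 0.05 (11.5% of all genes). The largest in size were Usp14, a deubiquitinase of the base (55.2 ± 2.54 and 47.4 ± 2.24 CPM, −0.22, edgeR adjusted p = 0.0539), and Adrm1, a ubiquitin receptor of the base (70.9 ± 5.18 and 61.2 ± 1.49 CPM, −0.21, edgeR adjusted p = 0.0685). Both were without overlap between the genotypes.

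Of 12 shuttles and unfoldase cofactors, 2 fell and 0 rose by edgeR (1.8% and 0.944% of all genes), 4 were lower by DESeq2 (6.08% of all genes) and 6 at an unadjusted p under 0.05 (11.5% of all genes), with a median of −0.12. Rad23b, a shuttle that carries ubiquitinated proteins to the base, had 117 to 142 CPM in MLPKO and 103 to 111 CPM in MLPKO-cRADKO (−0.25 ± 0.06, SE, edgeR adjusted p = 0.0486). Nploc4, a cofactor of the unfoldase VCP, had 90.2 to 101 CPM and 78.0 to 85.7 CPM (−0.23 ± 0.05, SE, edgeR adjusted p = 0.0369). Neither overlapped between the genotypes. With each mouse left out in turn, Rad23b passed only without MLPKO replicate 3 or 4 and Nploc4 only without MLPKO replicate 2 or 4, with edgeR adjusted p up to 0.109 and 0.0915 in the other fits.

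Of the 6 transcriptional activators of proteasome genes and their processing factors, 0 were called by edgeR (1.8% of all genes fell and 0.944% rose). By DESeq2 1, Vcp, was lower (6.08% of all genes). At an unadjusted p under 0.05, 2 were lower (11.5% of all genes). Nfe2l1, the factor that induces proteasome genes when degradation is blocked, had 751 ± 54.0 CPM in MLPKO and 708 ± 45.4 CPM in MLPKO-cRADKO (−0.08, edgeR adjusted p = 0.521). The largest in size were Ngly1, which removes glycans from Nfe2l1 protein (−0.22, edgeR adjusted p = 0.150), and Vcp (−0.18, edgeR adjusted p = 0.0945). Of 6 ubiquitin genes and E1 enzymes, 0 were called by edgeR (1.8% of all genes fell and 0.944% rose). Only 1, the E1 enzyme Uba1 (−0.24, edgeR adjusted p = 0.0797), was lower by DESeq2 (6.08% of all genes) and at an unadjusted p under 0.05 (11.5%).

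The lists that accompany the immunoproteasome were likewise without edgeR calls, against 1.8% of all genes that fell and 0.944% that rose. Of 10 class I antigen processing genes, 1, Tapbp (0.23, edgeR adjusted p = 0.0559), was higher by DESeq2 (3.96% of all genes) and at an unadjusted p under 0.05 (10.1%). The largest in size was Nlrc5 (−0.32, edgeR adjusted p = 0.652), the class I transactivator, before Tapbp. Of 10 interferon response factors, 0 were called by edgeR, by DESeq2 or at an unadjusted p under 0.05, with Irf7 (0.44, edgeR adjusted p = 0.346) and Irf1 (0.17, edgeR adjusted p = 0.330) the largest in size. Over all genes 6.08% were lower and 3.96% higher by DESeq2, and 11.5% and 10.1% at an unadjusted p under 0.05.

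Markers of the cells in the tissue moved with genotype too. The summed CPM of 8 cardiomyocyte markers was 63820 to 72230 in MLPKO and 45740 to 59950 in MLPKO-cRADKO, without overlap. Of the 8, 7 had a negative sign, with a median of −0.28, and Tnnt2 fell (−0.57, edgeR adjusted p = 0.0185), against 1.8% of all genes. At an unadjusted p under 0.05, 5 cardiomyocyte markers were lower (11.5% of all genes), and 3 by DESeq2 (6.08% of all genes). All 10 leukocyte and macrophage markers had a positive sign, with a median of 0.45, 0 edgeR calls, 9 higher at an unadjusted p under 0.05 (10.1% of all genes) and 4 by DESeq2 (3.96% of all genes), and sums of 191 to 282 and 232 to 508 CPM. Of 6 endothelial markers (640 to 772 and 769 to 884 CPM) Tek rose, and of 4 tested of 5 smooth muscle and pericyte markers (456 to 573 and 614 to 833 CPM) Acta2 and Rgs5 rose. By edgeR 0.944% of all genes rose. At an unadjusted p under 0.05, 5 endothelial markers were higher (10.1% of all genes), and 2 by DESeq2 (3.96% of all genes), while 1 had a negative sign. Of the smooth muscle and pericyte markers, 2 were higher by either measure. The smooth muscle and pericyte markers Myh11 (log2 fold change 0.01, edgeR adjusted p = 0.988) and Pdgfrb (−0.01, edgeR adjusted p = 0.946) did not move with Acta2 and Rgs5. With each mouse left out in turn, Tek passed in 9 of 10 fits (not without MLPKO replicate 5), Tnnt2 in 9 (not without MLPKO-cRADKO replicate 5), Acta2 in 4 (without MLPKO replicate 2, 3 or 4 or MLPKO-cRADKO replicate 5) and Rgs5 in 2 (without MLPKO replicate 2 or 4). The CPM of Acta2 overlapped between the genotypes, and its adjusted p was 0.0517 by limma-voom. None of the 6 fibroblast (1036 to 1571 and 862 to 1527 CPM), 5 erythrocyte (288 to 2798 and 409 to 1978 CPM), 3 tested of 4 atrial (109 to 2440 and 148 to 438 CPM) and 3 tested of 8 T, NK and B cell markers (1.46 to 3.69 and 1.65 to 5.33 CPM) passed the edgeR test. At an unadjusted p under 0.05, 1 was called, the atrial marker Nppa (log2 fold change −2.05, edgeR adjusted p = 0.124), and 0 by DESeq2. Of the atrial markers, Sln had up to 0.359 CPM, Myl7 0.327 to 4.55 CPM, Myl4 1.41 to 19.6 CPM and Nppa 106 to 2435 CPM. The atrial sums were thus mostly Nppa, which the paper counts among foetal cardiac genes lowered in MLPKO-cRADKO. They do not measure atrial tissue here. The replicate 1 mouse of MLPKO-cRADKO was the highest of all mice for Sln, Myl7 and Myl4, with 4.55 CPM of Myl7 against 0.327 to 0.633 CPM in the other mice of its genotype. The T cell markers Cd3e and Cd3d had up to 0.317 CPM. No listed marker was at 0 in all mice. The part of the cell types in the proteasome result was not tested.

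Since the 19S genes shared a sign, the promoters of the 51 genes were read for 4 motifs, on both strands of the 250 bases before to 50 bases after the transcript start (GRCm39). The core of the antioxidant response element, TGACNNNGC, to which Nfe2l1 and Nfe2l2 bind, was present in 8 of 51 (15.7%) and in 13.7% of the 13042 tested protein-coding genes. Of the 17 genes of the 19S, 3 held it (17.6%), and of the 14 constitutive genes of the 20S, 3 (21.4%), which were Psmb2, Psmb5 and Psmb6. The stretches around the matches of the 19S and of the constitutive catalytic subunits are shown, 5′ to 3′ on the strand of the gene. That of Psmb2 is not shown. Capitals mark the motif or its reverse complement.
Psmc6 (chr14:45567044-45567073, + strand): ccagccagtaGCTAAGTCAggcattgctca
Psmd12 (chr11:107370097-107370126, + strand): gagatgttctGCTGTGTCAcatttgccccc
Psmd7 (chr8:108315203-108315232, − strand): tcaatgccaaGCTTCGTCAatagcctaagt
Psmb5 (chr14:54855480-54855509, − strand): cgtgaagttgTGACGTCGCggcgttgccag
Psmb6 (chr11:70416164-70416193, + strand): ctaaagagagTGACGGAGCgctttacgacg
Of these 5 genes, Psmc6, Psmd12 and Psmd7 had log2 fold changes of −0.32, −0.27 and −0.20, and Psmb6 and Psmb5 of −0.13 and 0.11. None of the 5 genes that fell by edgeR had these letters in the window, but at a share of 13.7% few matches are due among 5 genes. By DESeq2, Psmc6, Psmd12 and Psmd7 were lower (adjusted p = 0.0211, 0.00707 and 0.0285), and Psmb5 and Psmb6 were not called. Whether the motif goes with the change was not tested.

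The CCAAT box, CCAAT, was found in 19 of 51 (37.3%, against 39.1% of tested genes), and in 6 of the 17 genes of the 19S and 8 of the 14 constitutive genes of the 20S. The gamma-activated site core, TTCNNNGAA, was found in 5 (9.80%, against 7.44%). Of the 17 genes of the 19S, 3 held it (17.6%), Psmc6, Psmd1 and Psmd3, and 0 of the 14 constitutive genes of the 20S. The core of the interferon-stimulated response element, GAAA followed by any 2 bases and GAAA again, was found in 7 (13.7%, against 3.57%), among them the 19S genes Psmd4 and Psmd7 and the alpha subunits Psma4 and Psma5, and in 0 of the 3 immunoproteasome genes, of which Psmb8 held the gamma-activated site core. The matches of these 4 and of Psmb3, a structural beta subunit, are shown in the same way, because their letters are those of an interferon motif in genes of the constitutive particle.
Psmd4 (chr3:94949986-94950015, − strand): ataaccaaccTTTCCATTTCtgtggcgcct
Psmd7 (chr8:108315161-108315190, − strand): aaggcggttcTTTCCCTTTCtcaagatggc
Psma4 (chr9:54857860-54857889, + strand): gtacagaagaGAAAACGAAAgtggagtgca
Psma5 (chr3:108163932-108163961, + strand): acctatgcaaGAAATTGAAAaacgttcttg
Psmb3 (chr11:97594087-97594116, + strand): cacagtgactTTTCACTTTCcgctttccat
A match is a description of the letters and not of binding, and the difference in share was not tested. The log2 fold changes of Psma5, Psmd4, Psmd7, Psma4 and Psmb3 were −0.30, −0.27, −0.20, −0.11 and −0.11.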

How the data were processed

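The proteasome genes and the related and marker lists were chosen with earlier results of these data known. Per the labels and the methods, the authors aligned reads of polyadenylated RNA with STAR (GRCm39) and summed them over genes with featureCounts; the deposited values are raw counts, and settings for strand and shared reads are not given in the sources used here. Of 60676 rows, 3491 were blank in every mouse. Of the 57185 others, GENCODE M39 placed 56629. Among counts from 1 to 20, 73.7% to 80.3% per library were even.

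The filter of the study was applied to these counts: over 10 in 6 or more mice, and no Gm or Rik genes. The 5 mice of each genotype were compared with edgeR 4.0.16 (TMM, quasi-likelihood test, Benjamini-Hochberg adjustment over 13454 genes, R 4.3.3). DESeq2, the authors' tool, was run in version 1.42.0, and it and limma-voom (limma 3.58.1) were alternatives, with RLE and upper quartile factors, other filters, robust dispersion, mouse number as a block, and leaving out each mouse. A fit without mitochondrially encoded genes was added after seeing the data. CPM used TMM-scaled totals. Named were genes with an adjusted p under 0.05, the catalytic subunits, the regulators, the 3 lowest and 3 highest by fold change and by level, those that failed the filter and, of each related list, the genes called or else the 2 largest in size; others named were chosen after their values were seen. The values of 1 gene that this rule names are not reported here. The lists were proteasome proteins with other symbols, activators of proteasome genes, ubiquitin genes, shuttles, class I antigen processing, interferon factors, and markers of 8 cell types. Of the symbols, 5 belonged to noncoding pseudogenes, which were left out; Psma5-ps had 10 to 26 counts. Exons shared with genes on the opposite strand made up 25% or more of 6 proteasome genes (Psmb7, Psmd13, Psme1, Psmc5, Psmc3ip and Psme2).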

Additional observations from a re-analysis of the deposited data

Results flagged for a closer look

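Over 50 proteasome genes in 2 genotypes, 4 of 100 groups of 5 mice held a value whose gap to the nearest other value exceeded 0.71 of the group's range, which is about what chance gives (1 in 20). All 4 were in MLPKO-cRADKO. Psmd6, a lid subunit of the 19S, had 51.9 CPM in replicate 3, against 59.6 to 61.2 CPM in the other mice of the genotype. Psmd8, also of the lid, had 56.5 CPM in replicate 1, against 65.7 to 69.0 CPM. Psmb1, a structural beta subunit, had 96.2 CPM in replicate 1, against 86.7 to 88.4 CPM. Psmd10, an assembly chaperone, had 8.32 CPM in replicate 2, against 8.68 to 8.74 CPM. None of these genes passed the edgeR test.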

How the results depend on the processing

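The number of proteasome genes with an edgeR adjusted p under 0.05 was 5, all lower, and the same 5 genes were called with RLE factors, upper quartile factors, filterByExpr, Gm and Rik genes kept, limma-voom, robust dispersion and no mitochondrially encoded genes; with no filter on low counts it was 4, without Psmc4. DESeq2 gave 18, and leaving out each mouse gave 0 to 18. Over all genes the count was 369, with 1298 by DESeq2, 47 to 826 with each mouse left out, and 301 to 382 with the other settings but the block; upper quartile factors split it into 207 lower and 175 higher, against 242 and 127. With the mouse number as a replicate block, 1 proteasome gene (Psmd1) and 281 of all genes were called, and Rad23b (adjusted p = 0.0632), Nploc4 (0.060) and Acta2 (0.0569) were not; the numbers belong to different animals, the correlation of same-numbered mice ran from −0.0443 to 0.152, and 2 of 5 mice correlated best with their own number. All proteasome genes called in any of these fits were lower. Genes near 0 changed sign: the log2 fold change of Psme2 was 0.022 with upper quartile factors, 0.0027 with filterByExpr and −0.024 to 0.038 with each mouse left out, that of Psmb9 was −0.048 to 0.18 and that of Psme4 −0.0066 to 0.062. Summed group levels moved by less than the spread between mice under other scalings and left-out mice, though by plain totals the log2 differences of immunoproteasome, activators and chaperones were 0.041, 0.058 and 0.048, against −0.017, −8.21e-06 and −0.0093. Median levels per length moved with the length used. Of the tested proteasome genes Psma8 had the fewest counts, 16 to 76 per mouse, and counting error weighs most there. The causes of these shifts were not tested.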
